A study of Saccharomyces cerevisiae with 64 samples.

Results

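The genes described here are SUL1, SUL2, MET3, MET14, MET16, MET5, MET10, MET2, MET17 and MET6, 10 of the 6002 protein-coding nuclear genes of budding yeast in the reference annotation (R64). They were chosen from earlier results on the same peak lists, because several of them carried the Set1C subunit Spp1 after the shift to sporulation medium and not at 0 h. A gene was counted as occupied when a deposited peak had its midpoint inside the coding region or in the 500 bp before the coding start. The difference between 0 h and later times is therefore what selected these genes, and it is described below without a test. The difference between the H3 mutants and H3 wild type was not the contrast of the choice, and it was tested. The peaks after 0 h for which the genes were chosen were found mostly in these same strains. These tests are therefore not fully independent of the choice.

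These genes build methionine from inorganic sulfate. Sulfate is taken up by permeases, activated to adenylyl sulfate and then to phosphoadenylyl sulfate, reduced to sulfite and then to sulfide, and joined to O-acetylhomoserine to give homocysteine, which is methylated to methionine. Methionine feeds S-adenosylmethionine, the methyl donor of histone methyltransferases. In yeast the pathway is controlled by the activator Met4, which is brought to promoters by Cbf1, Met31 and Met32, and its genes are known to be expressed when cells lack sulfur amino acids. Spp1 reads methylated lysine 4 of histone H3 through its PHD finger and stimulates trimethylation of that lysine by Set1C, of which Bre2 is another subunit. In meiosis Spp1 also links trimethylated sites to the machinery that makes DNA breaks.

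Chromatin immunoprecipitation and sequencing was done on diploids of the SK1 background in pre-sporulation medium (SPS) and in sporulation medium (SPM, potassium acetate with the amino acids and nucleotides that the strains require). The H3 strains lacked both chromosomal copies of HHT1 and, by the genotype as labelled, carried hht2 and hht1 deletion alleles at the other locus, with H3 supplied on a centromeric plasmid as HHT2 K4R (H3K4R, lysine 4 replaced by arginine), HHT2 R2A (H3R2A, arginine 2 replaced by alanine) or unchanged HHT2 (H3 wild type). All 3 plasmids also held HHF2 and TRP1. The 3 strains were homozygous for SPP1-3xHA, lys2, ho::LYS2, trp1-1 and ura3 and heterozygous for leu2 and his4, and each was sampled at 0, 2, 4 and 6 h in SPM with 2 libraries per time. The myc strains were homozygous for 13xmyc-tagged Spp1 lacking the PHD finger (PHD-deleted), Spp1 lacking the CXXC domain (CXXC-deleted), full-length Spp1 (Spp1-myc) or Bre2 (Bre2-myc), with homozygous trp1 and ura3 and heterozygous leu2 and his4 mutations. Each had a single library in SPS and a single one at each of 0, 2, 4 and 6 h, without replicates. In the competition series Spp1-GFP was driven by the copper-responsive CUP1-1 promoter and mapped in 8 libraries between 4.5 and 6.5 h, in diploids whose other homologue carried SPP1-13xmyc. Spp1-myc of that series was mapped in 10 libraries, whose labels give a genotype homozygous for the myc tag. The labels do not say that replicates came from separate cultures, so the spread behind the p-values may be technical. The tests of peak presence also count the successive times of a series as separate libraries: 8 libraries of an H3 strain are 2 series of 4 times, so these p-values rest on fewer separate series than libraries.

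In all, 62 lists were used, with 87 to 2119 peaks per list, and no pair of lists shared more than 10.0% of the shorter list's exact intervals. Read counts are not in the lists, so the depth is unknown. An input and an untagged strain were not analysed here, so signal that does not depend on the tag was not measured. The check on the H3 strains held: HHT1, the deleted H3 gene, had a peak in 0 of 24 H3 strain libraries, against 12 of 12 SPM libraries of the 3 Spp1-myc forms (PHD-deleted, CXXC-deleted and full-length; Fisher's exact test, adjusted p = 1.56e-06). All 10 time courses of the H3 and myc strains had fewer peaks at 6 h than at 0 h, and H3 wild type replicate 2 had 731 nuclear peaks at 4 h and 598 at 6 h, against 1308 and 1350 in replicate 1. In the competition series the lists were shorter still, and the 18 of them covered 0.046% to 1.92% of all coding sequence.

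In the H3 strains nearly all of the 10 genes carried Spp1 after the shift to SPM. In H3K4R replicate 1 the number of occupied genes of the 10 was 1, 10, 10 and 8 at 0, 2, 4 and 6 h, where 19.9%, 19.3%, 15.5% and 9.43% of all 6002 genes were occupied. H3K4R replicate 2 had 2, 10, 9 and 10 occupied genes, with 25.8%, 32.8%, 14.8% and 21.2% of all genes. In H3R2A replicate 1 the numbers were 1, 10, 10 and 8, with 25.8%, 11.7%, 15.3% and 7.83% of all genes, and in replicate 2 they were 3, 10, 9 and 7, with 20.6%, 12.6%, 12.4% and 12.2%. H3 wild type replicate 1 had 3, 10, 10 and 8 occupied genes, with 32.8%, 23.3%, 19.4% and 16.8% of all genes, and replicate 2 had 4, 8, 8 and 7, with 22.7%, 20.1%, 10.5% and 7.75%. Over the 3 strains the mean was 9.0 ± 1.14 of 10 at 2, 4 and 6 h (SD, n = 18 libraries), against 2.33 ± 1.21 of 10 at 0 h (SD, n = 6). The share of all genes with a peak averaged 15.7% at those later times and 24.6% at 0 h, so the 10 genes moved the other way from the genome, in the contrast by which they were chosen. None of the 10 had a peak at 0 h that was absent from all of 2, 4 and 6 h, a class that held 6.06% and 4.65% of all genes in the 2 H3K4R series, 12.3% and 9.33% in H3R2A and 12.4% and 9.48% in H3 wild type.

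A peak at each of 2, 4 and 6 h and none at 0 h is the strictest form of the gain. In H3K4R replicate 1 it was met by SUL1, SUL2, MET3, MET5, MET10, MET2 and MET6, 7 of the 10, and by 1.62% of all genes, and in replicate 2 by the same genes with MET16 in place of MET6 (2.0% of all genes). In H3R2A it was met by 7 of the 10 in replicate 1 (0.916% of all genes) and by SUL2, MET3, MET5 and MET2 in replicate 2 (2.05%). In H3 wild type it was met by SUL1, SUL2, MET3, MET5 and MET10 in replicate 1 (1.85%) and by MET5, MET10 and MET2 in replicate 2 (1.22%). MET5, a subunit of sulfite reductase, met it in all 6 series. With a peak at any 1 of the later times in place of all 3, the counts were 9 and 8 of 10 in H3K4R (9.18% and 16.1% of all genes), 9 and 7 in H3R2A (7.98% and 6.08%) and 7 and 4 in H3 wild type (11.3% and 10.8%), for replicates 1 and 2. MET17 met neither form in any of the 6 series, since it already had a peak at 0 h. As this is the contrast that selected the genes, nothing is read from the counts.

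**Figure D1:**
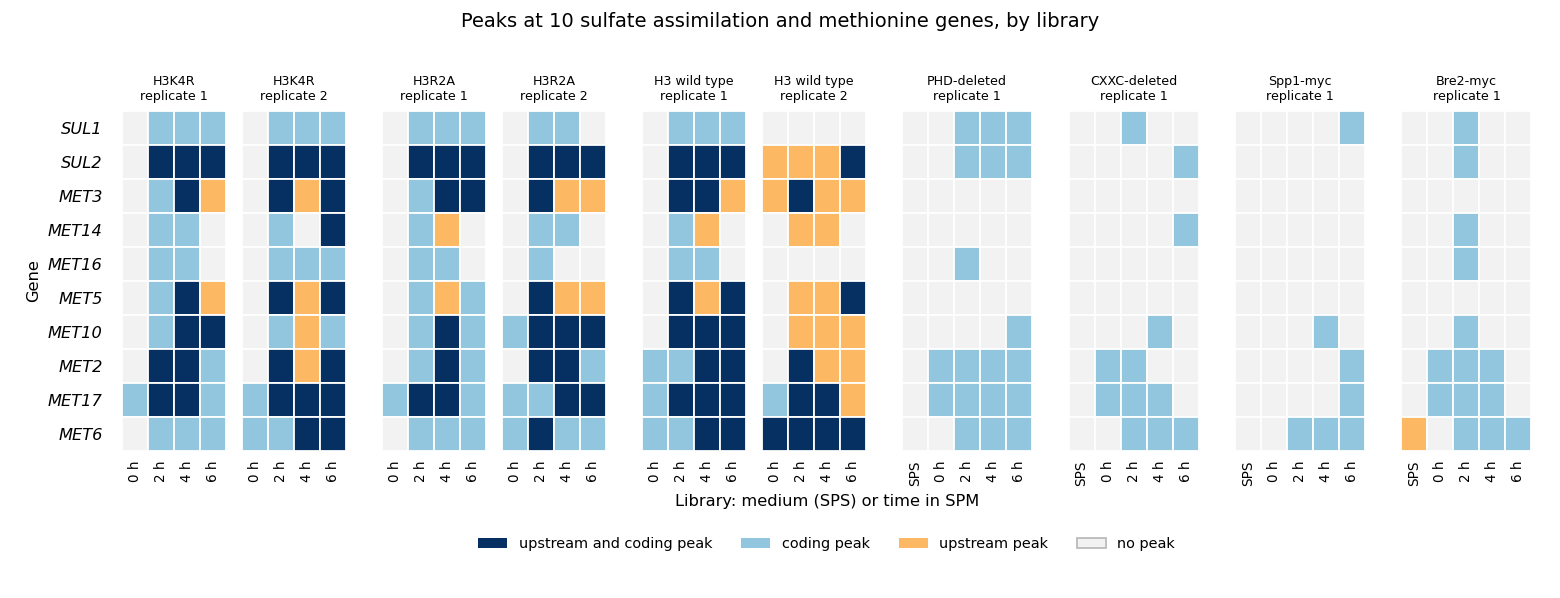
Peaks at each of the 10 genes (rows, ordered by step of the pathway) in each H3 strain and myc strain library (columns, by strain, replicate and time in SPM or SPS). Dark blue marks a peak upstream and in the coding region, light blue a coding peak, orange an upstream peak and grey none; upstream peaks occur in 19 of 24 H3 strain libraries and in 1 myc strain library, Bre2-myc in SPS.

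In the myc strains fewer of these genes had peaks. Full-length Spp1-myc occupied 0 of 10 in SPS and 0 of 10 at 0 h, although 24.7% and 34.0% of all genes had a peak in those lists, and then 1, 2 and 4 of 10 at 2, 4 and 6 h (17.2%, 18.2% and 16.6% of all genes). The gene at 2 h was MET6, those at 4 h were MET10 and MET6, and those at 6 h were SUL1, MET2, MET17 and MET6. By the rule of a peak at both 4 and 6 h and none in SPS or at 0 h, MET6 alone was gained in Spp1-myc, a class of 2.2% of all genes. PHD-deleted Spp1-myc occupied 0 in SPS (9.96% of all genes) and 2, 6, 5 and 6 of 10 at 0, 2, 4 and 6 h (22.0%, 12.9%, 10.9% and 11.3%), and by that rule SUL1, SUL2 and MET6 were gained (1.3% of all genes). CXXC-deleted Spp1-myc occupied 0 in SPS (11.1% of all genes) and 2, 4, 3 and 3 of 10 over the times (25.3%, 19.6%, 16.6% and 14.9%), with MET6 gained (1.5% of all genes). Bre2-myc occupied 1 in SPS (11.4% of all genes) and 2, 8, 3 and 1 of 10 over the times (21.0%, 16.4%, 12.5% and 11.3%), and none of the 10 was gained by that rule (1.37% of all genes), since its SPS list held a peak upstream of MET6 and its 6 h list held none of the other 9. Counting a peak at any later time and none at 0 h, there were 5 of the 10 in PHD-deleted (8.1% of all genes), 5 in CXXC-deleted (10.9%), 5 in full-length Spp1-myc (11.3%) and 6 in Bre2-myc (9.41%). With a peak at all of 2, 4 and 6 h there were 3 in PHD-deleted (1.13%) and 1, MET6, in CXXC-deleted (1.43%), full-length Spp1-myc (1.0%) and Bre2-myc (1.57%). No gene of the 10 lost a 0 h peak at all later times, a class of 11%, 9.31%, 16.5% and 9.53% of all genes in PHD-deleted, CXXC-deleted, full-length Spp1-myc and Bre2-myc. These series have 1 library per time, so the differences between them carry no error and were not tested.

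**Figure D2:**
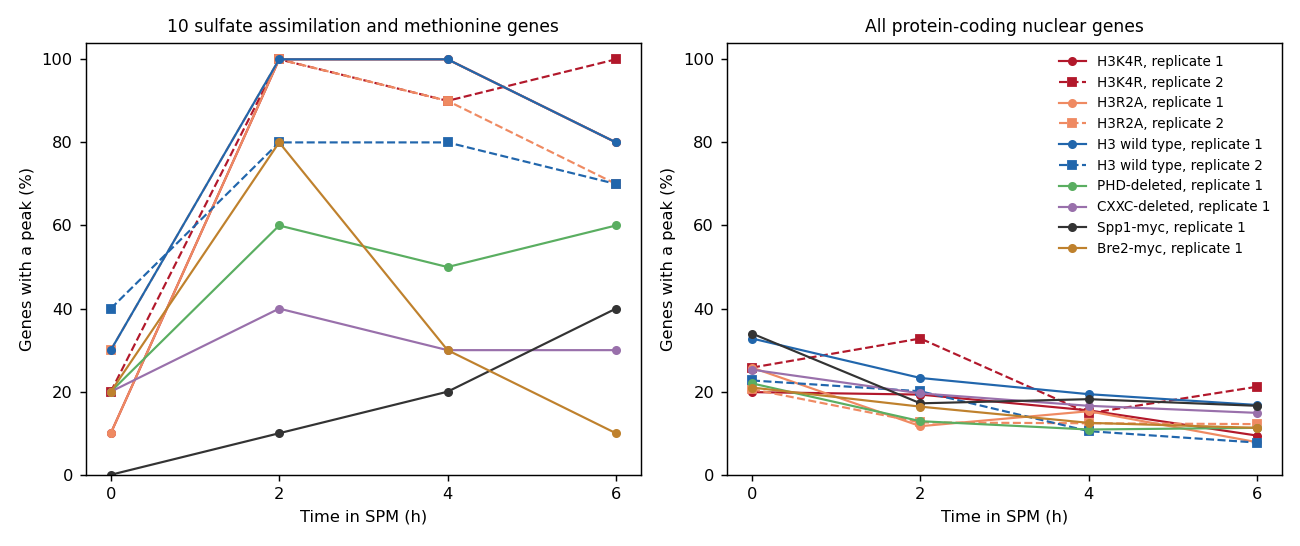
Percent of the 10 genes (left) and of all 6002 genes (right) with a peak against time in SPM in hours, 1 line per strain and replicate (solid for replicate 1, dashed for replicate 2). In the H3 strains the 10 genes lie at 10% to 40% at 0 h and at 70% to 100% afterwards, where the share of all genes does not exceed 32.8%.

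Peaks at the 10 genes were of 2 kinds. The first was a narrow peak upstream of the coding start, seen at 8 of the 10 genes, all but SUL1 and MET16, in 19 of the 24 H3 strain libraries and in 1 other list, Bre2-myc in SPS. There were 106 such peaks in the H3 strains, with a median width of 151 bp (range 101 to 251 bp), which is the median width of all 3107 upstream peaks in the H3 strains as well. The second was a coding peak, which reached the length of the whole gene in places: 193 coding peaks in the H3 strains had a median width of 501 bp and a range of 101 to 4251 bp. Over the 10 genes at 2, 4 and 6 h, peaks covered on average 37.0% ± 7.42 of the bases between 300 and 400 bp before the coding start in H3K4R, 35.7% ± 14.8 in H3R2A and 44.6% ± 6.89 in H3 wild type (SD, n = 6 libraries each). The same stretch was covered in none of the 9 libraries of the 3 Spp1-myc forms and in none of the 3 Bre2-myc libraries. Of all genes, a mean of 2.24% had an upstream peak in these 9 libraries and 2.44% in the 18 later H3 strain libraries. At such a share 10 genes would often have none, so the absence is not read as a trait of these genes. In the coding region the highest cover was between 10% and 20% of the length, with 76.9% ± 27.7 in H3K4R, 55.9% ± 24.0 in H3R2A and 33.1% ± 30.7 in H3 wild type. In the last 10% of the length it was 31.7% ± 20.7 in H3K4R, 29.8% ± 26.0 in H3R2A and 10.4% ± 9.01 in H3 wild type. The Spp1-myc forms had their highest cover between 10% and 20% as well, 27.7% ± 15.3 (SD, n = 9), and 3.96% ± 4.45 in the last 10%.

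**Figure D3:**
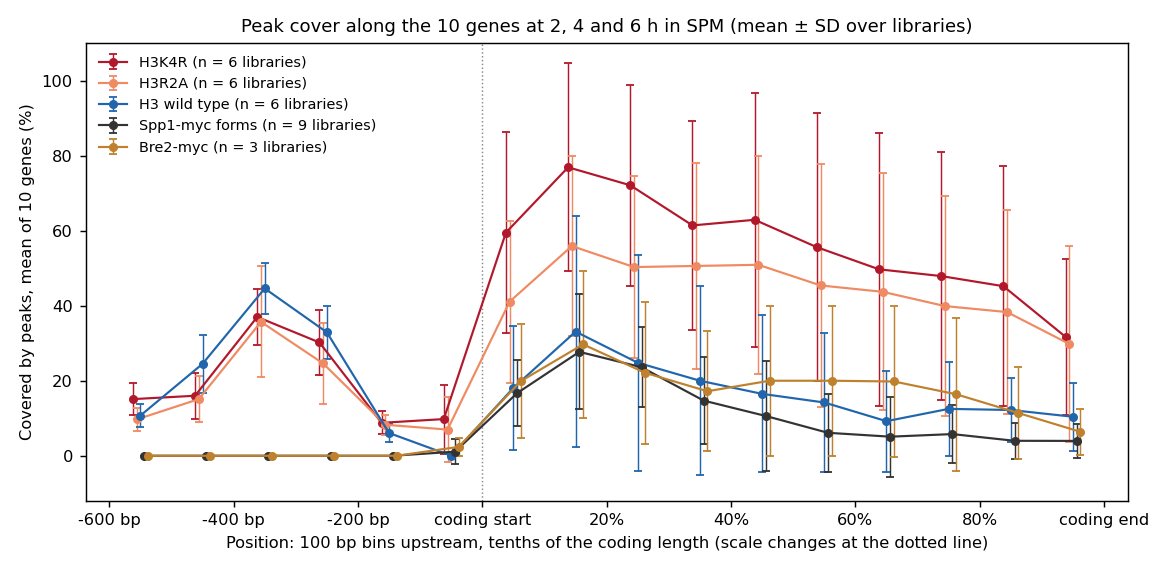
Share of the sequence covered by peaks (%, mean over the 10 genes, then mean ± SD over libraries at 2, 4 and 6 h) against position, in 100 bp bins upstream of the coding start and in steps of 10% of the coding length. The upstream summit between 400 and 200 bp before the coding start is present in H3K4R, H3R2A and H3 wild type and flat at 0 in the Spp1-myc forms and Bre2-myc; within the coding region H3K4R and H3R2A lie above H3 wild type in mean.

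The upstream peak stood at nearly the same place from library to library. Its midpoint lay at a median of 323 bp before the coding start of SUL2 (SD 19.6 bp, 19 peaks), 361 bp before MET3 (SD 16.1 bp, 17 peaks), 317 bp before MET5 (SD 21.7 bp, 15 peaks), 197 bp before MET10 (SD 24.4 bp, 13 peaks) and 429 bp before MET2 (SD 24.6 bp, 13 peaks). MET17 had it at 301 bp (SD 28.8 bp, 15 peaks) and MET14 at 276 bp (SD 37.9 bp, 5 peaks). Over all genes, upstream midpoints in the H3 strains had a median of 386 bp and an SD of 117 bp, over different genes and within the 500 bp window. At MET6 the midpoint lay 500 bp before the coding start in 9 libraries, the last position that the 500 bp rule admits, and between 501 and 550 bp in 9 more. Counted over 400 and up to 600 bp, the MET6 peak was present in 5 of 8 H3K4R libraries, 6 of 8 H3R2A libraries and 7 of 8 H3 wild type libraries, and in 0 of the other 38 lists. The 0 depends on that range, since the Bre2-myc peak in SPS had its midpoint at 397 bp, just outside it. The MET6 upstream peak lies between MET6 and the divergent gene IES5 and is counted for both. No peak of the other 9 genes had a midpoint between 501 and 600 bp upstream in any list.

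Because the upstream peaks were seen in the H3 strains and not in the Spp1-myc forms, the presence of an upstream peak was compared between the 24 H3 strain libraries and the 12 SPM libraries of PHD-deleted, CXXC-deleted and full-length Spp1-myc. This comparison was added after the data were seen. Across 1023 genes with an upstream peak in at least 1 of these libraries, 53 passed (5.18%), 35 of them more often in the H3 strains (3.42%), by Fisher's exact test, with p adjusted over all genes tested (Benjamini-Hochberg). The 24 libraries are 6 series and the 12 are 3 series, whose successive times were counted as separate libraries. For the 10 genes this contrast is a description and supports nothing, since they were chosen for peaks after 0 h, which were found mostly in the H3 strains, and since 8 of them entered only through upstream peaks of the H3 strains, so that 1 direction alone was possible. Their counts were 19 of 24 against 0 of 12 libraries for SUL2, 17 against 0 for MET3, 15 against 0 for MET5 and MET17, 13 against 0 for MET10 and MET2, 9 against 0 for MET6 and 5 against 0 for MET14, and the first 6 of these were past the adjusted threshold. IES5, whose upstream window also takes in the MET6 upstream peak, had 18 of 24 against 0 of 12. Strain and tag change together here: the HA tag and its antibody, the plasmid H3 and the lys2, ho::LYS2 and trp1-1 alleles all mark the H3 strains, so these cannot be told apart. Leaving out any 1 of the 3 Spp1-myc forms left SUL2 and MET3, 2 of the 10, past the threshold, and with H3 wild type against full-length Spp1-myc alone no gene passed. That last setting has the fewest libraries and little room to call any gene, so nothing is read from it. Restricting every list to the peaks scoring above its median, or to equal length, left SUL2 alone. A window of 250 bp, which ends before most of these midpoints but not before those of MET10, left none.

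At the uptake step the 2 genes had different kinds of peaks. SUL1 (YBR294W, chrII:789235-791814) and SUL2 (YLR092W, chrXII:323544-326225) encode the high-affinity sulfate permeases. SUL2 had a peak in all 18 H3 strain libraries at 2, 4 and 6 h and in 1 of 6 at 0 h, and all 18 later libraries had its upstream peak. SUL1 had a peak in 14 of these 18 libraries and in 0 of 6 at 0 h, always in the coding region and never upstream. In the coding region of SUL1 the share of bases covered at 2, 4 and 6 h had a low of 29.1%, a median of 85.3% and a high of 96.8% in the 6 H3K4R libraries. The same 3 values were 0%, 35.0% and 98.7% in H3R2A and 0%, 2.93% and 25.2% in H3 wild type. Every H3K4R library thus lay above every H3 wild type library, as at 1.9% of the 2741 genes with any cover, while H3R2A overlapped both. At SUL2 the low, median and high were 18.7%, 26.1% and 95.2% in H3K4R, 5.63%, 23.4% and 93.3% in H3R2A and 0%, 6.56% and 18.7% in H3 wild type. In the myc strains at 2, 4 and 6 h SUL1 was occupied in 6 of 12 libraries and SUL2 in 5 of 12, with at most 17.5% and 15.0% of the coding length covered.

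Activation is carried out by ATP sulfurylase, encoded by MET3 (YJR010W, chrX:456239-457774), and by adenylylsulfate kinase, encoded by MET14 (YKL001C, chrXI:438777-439385, minus strand). MET3 had a peak in 18 of 18 H3 strain libraries at 2, 4 and 6 h, in 1 of 6 at 0 h, and in 0 of 20 myc strain libraries. Its upstream peak was the more frequent of its peaks, in 16 of the 18 later libraries, while a coding peak was present in 11 of 18. By any peak MET3 was occupied in 19 of 24 H3 strain libraries against 0 of 12 of the 3 Spp1-myc forms, again a description. Over 3899 genes 37 (0.949%) were past the adjusted threshold in that contrast, MET3 among them, but not with a 250 bp window, any coding overlap, peaks above the median score, lists of equal length or H3 wild type against full-length Spp1-myc. The last of these settings has few libraries and little room to call any gene. MET3 entered the contrast only through the H3 strains, so 1 direction alone was possible. MET14, a short gene of 609 bp, had a peak in 12 of 18 later H3 strain libraries and in 0 of 6 at 0 h, and in 2 of 12 myc strain libraries at 2, 4 and 6 h. In H3K4R the share of MET14 covered was 82.3% and 94.7% at 2 h, 65.8% and 0% at 4 h, and 0% and 74.1% at 6 h (replicates 1 and 2).

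Reduction takes 2 enzymes. MET16 (YPR167C, chrXVI:876847-877632, minus strand) encodes phosphoadenylylsulfate reductase, and MET5 (YJR137C, chrX:678957-683285, minus strand) and MET10 (YFR030W, chrVI:213312-216419) encode the beta and alpha subunits of sulfite reductase. MET16 was the gene with the fewest peaks, in 12 of 62 lists: 10 of 18 later H3 strain libraries, 0 of 6 at 0 h and 2 of 20 myc strain libraries. It had no upstream peak in any list, and 1 of its coding peaks was shared with its neighbour MRP2. Both sulfite reductase genes had a peak in 18 of 18 later H3 strain libraries, with MET5 in 0 of 6 and MET10 in 1 of 6 at 0 h. In the myc strains MET5 was found in 0 of 20 libraries and MET10 in 4. By any peak MET5 was occupied in 18 of 24 H3 strain libraries against 0 of 12 of the Spp1-myc forms, and MET10 in 19 against 3. MET5 was past the adjusted threshold in that contrast, as were 0.949% of all genes tested, and MET10 was not. MET5 entered only through the H3 strains, so 1 direction alone was possible and the contrast is again a description. It was not past the threshold with a 250 bp window, any coding overlap or peaks above the median score. Nor was it with H3 wild type alone against either full-length Spp1-myc or the 3 forms, settings with fewer libraries and less room to call a gene. The largest peak at any of the genes was at MET5, a peak of 4251 bp over a coding region of 4329 bp in H3K4R replicate 2 at 2 h (chrX:679002-683252). In H3K4R the share of MET5 covered was 62% and 98.2% at 2 h, 10.5% and 0% at 4 h, and 0% and 11.6% at 6 h (replicates 1 and 2).

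The last steps were occupied in the most libraries. MET2 (YNL277W, chrXIV:117349-118809) encodes homoserine O-acetyltransferase, MET17 (YLR303W, chrXII:732542-733876) O-acetylhomoserine sulfhydrylase, which takes up the sulfide, and MET6 (YER091C, chrV:339864-342167, minus strand) the cobalamin-independent methionine synthase. They were occupied in 30, 35 and 36 of 62 lists, and all 3 in 18 of 18 later H3 strain libraries. MET17 was already occupied at 0 h in 6 of 6 H3 strain libraries and in 3 of 4 myc strain libraries, and MET2 at 0 h in 1 of 6 and 3 of 4. MET6 was occupied at 0 h in 4 of 6 H3 strain libraries and 0 of 4 myc strain libraries, and it was the only one of the 10 with a peak in all 12 myc strain libraries at 2, 4 and 6 h. Of the peaks at MET17, 21 of 38 coding and 13 of 15 upstream ones also fell within the window of the overlapping neighbour YLR302C, so they cannot be given to 1 gene.

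MET6 showed the coding peak most fully. At 2, 4 and 6 h the share of its coding length covered was 98.7%, 100% and 97.7% in H3K4R replicate 1 and 100%, 98.9% and 98.8% in replicate 2. In H3R2A it was 100%, 97.7% and 98.9% in replicate 1 and 98.8%, 98.7% and 98.8% in replicate 2. In H3 wild type it was 78.2%, 71.7% and 52.2% in replicate 1 and 34.8%, 34.9% and 28.3% in replicate 2. All 12 mutant libraries lay above all 6 H3 wild type libraries. Of the genes with any cover, 1.9% of 2741 lay above H3 wild type without overlap in H3K4R, and 0.271% of 2216 in H3R2A. In the mutants the peak was 1 interval of 2251 to 2351 bp that ran the length of the gene, as in H3K4R replicate 1 at 4 h (chrV:339842-342192), while in H3 wild type the same gene held separate intervals, such as one of 1251 bp at its start (chrV:340892-342142) and others of 251 bp and 151 bp near its end in replicate 1 at 4 h. Full-length Spp1-myc covered 36.9%, 67.4% and 26.1% of MET6 at 2, 4 and 6 h, PHD-deleted Spp1-myc 96.7%, 58.7% and 28.3%, CXXC-deleted Spp1-myc 76.0%, 32.6% and 17.4%, and Bre2-myc 96.7%, 96.7% and 17.4%. The 3 strains other than full-length Spp1-myc were thus highest at 2 h and lowest at 6 h, Bre2-myc with equal values at 2 and 4 h.

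H3K4R and H3R2A test whether Spp1 sits at these genes without methylatable lysine 4 or with altered arginine 2. In the test of whether a gene carried a peak at all, 0 of 3382 genes passed for H3K4R against H3 wild type (0%; Fisher's exact test, 8 against 8 libraries), although 197 genes had an unadjusted p under 0.05 and the lowest adjusted p was 0.225. For H3R2A 0 of 3183 genes passed (0%), with 87 at an unadjusted p under 0.05 and a lowest adjusted p of 0.495 by the exact test. The adjusted p was 1.0 for each of the 10 genes in both comparisons. SUL2, MET3, MET5, MET10, MET2, MET17 and MET6 had a peak in all 18 libraries of the 3 strains at 2, 4 and 6 h. That left the test little room for a difference at these genes. SUL1 was occupied in 6 of 8 H3K4R libraries, 5 of 8 H3R2A libraries and 3 of 8 H3 wild type libraries, and MET16 in 5, 3 and 2 of 8. The other 8 genes differed by at most 1 library between each mutant and H3 wild type.

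The length of gene covered had a higher mean in both mutants. This measure was taken up only once the peak lists had been looked at. Over the 10 genes together, peaks covered 53.6% ± 27.9 of the coding length in H3K4R, 44.6% ± 29.8 in H3R2A and 15.5% ± 12.2 in H3 wild type at 2, 4 and 6 h (SD, n = 6 libraries each). Over all 6002 genes the values were 4.35%, 3.34% and 3.62% in H3K4R, H3R2A and H3 wild type, higher in H3K4R and lower in H3R2A than in H3 wild type. The part of list length in the cover of the 10 genes was not tested. At 2 h the 10 genes were covered to 76.8% and 97.0% in H3K4R, 93.1% and 32.7% in H3R2A and 35.3% and 7.5% in H3 wild type (replicates 1 and 2). At 4 h the values were 49.6% and 32.7%, 26.6% and 32.7%, and 22.2% and 4.36%, in the same order, and at 6 h 23.7% and 41.9%, 68.1% and 14.4%, and 18.6% and 4.85%. H3 wild type replicate 2 was the lowest at every time. Its lists were the shortest of the 3 strains at 4 and 6 h (731 and 598 nuclear peaks), with 611 in H3K4R replicate 1 at 6 h. At 2 h they were not, with 1264 against 884 and 848 in H3R2A. Without replicate 2 H3 wild type averaged 25.4% ± 8.75 (SD, n = 3), and H3 wild type replicate 1 lay within the range of H3R2A at 2 and 6 h and below both mutants at 4 h.

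Gene by gene, the mean cover at 2, 4 and 6 h was above H3 wild type for 10 of 10 genes in H3K4R, where this held for 58.6% of the 2741 genes with any cover, and for 10 of 10 in H3R2A, where it held for 31.3% of 2216. The 10 genes were chosen for peaks found after 0 h, unlike these genes with any cover. With replicates of the same number set side by side, it was above for 10 and 10 of the 10 genes in H3K4R (25.3% and 66.4% of those genes) and for 9 and 8 of 10 in H3R2A (19.2% and 32.2%). In H3K4R 2 of the 10, SUL1 and MET6, did not overlap with H3 wild type at these times (1.9% of those genes), and in H3R2A 1 of 10, MET6 (0.271%). Over all 4 times, an exact permutation test within time, over 1296 arrangements, called 0 of 3170 genes for H3K4R (0%; 355 genes, or 11.2%, at an unadjusted p under 0.05) and 0 of 2986 for H3R2A (0%; 202 genes, or 6.76%). Of the 10 genes, 6 were at an unadjusted p under 0.05 in H3K4R and 1 in H3R2A, with adjusted p from 0.294 to 0.806 and from 0.535 to 1.0. The smallest p this exact test can give with 2 libraries per time is 0.00154, and no single gene passed once all genes were counted. SUL1 had the widest gap, 57.4% ± 41.4 in H3K4R and 5.59% ± 9.31 in H3 wild type over all times (SD, n = 8 each; adjusted p = 0.294, exact permutation). MET6 averaged 74.9% ± 44.3 in H3R2A and 42.4% ± 23.4 in H3 wild type (SD, n = 8 each; adjusted p = 0.535, exact permutation).

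**Figure D4:**
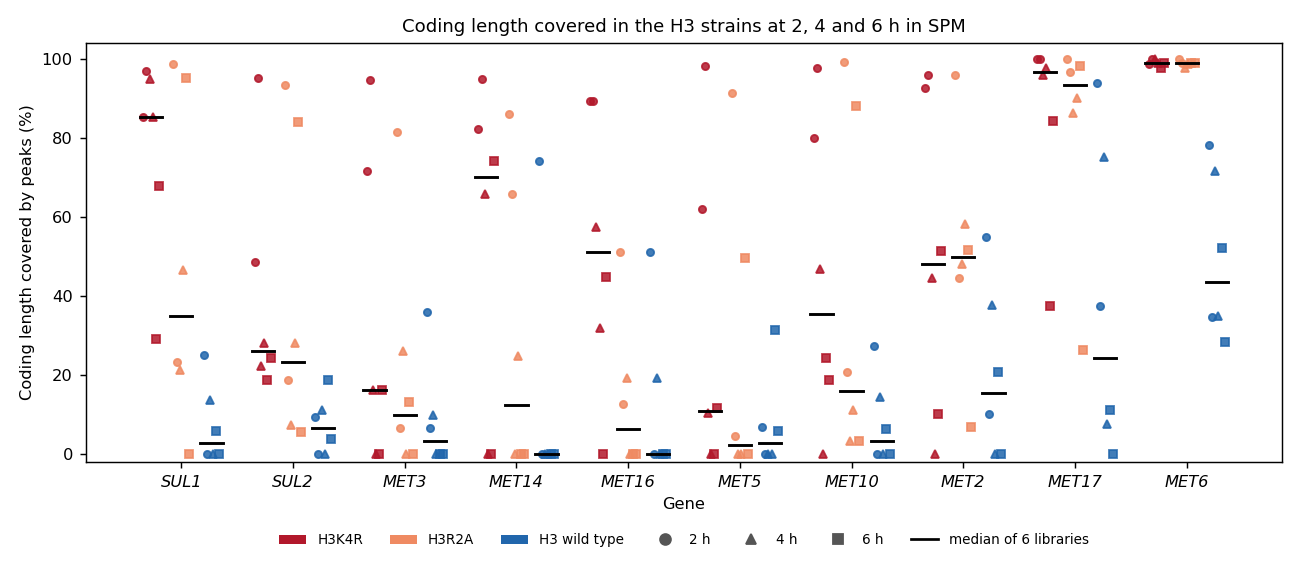
Share of the coding length covered by peaks (%) at each of the 10 genes in H3K4R, H3R2A and H3 wild type at 2 h (circles), 4 h (triangles) and 6 h (squares), 2 libraries per strain and time, with the median of 6 libraries as a black bar. At MET6 the 12 mutant libraries lie between 97.7% and 100% and the H3 wild type libraries between 28.3% and 78.2%. At SUL1 H3K4R lies above H3 wild type and H3R2A overlaps it, and at the remaining genes both mutants overlap H3 wild type.

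Upstream peaks were counted in the same libraries. Of the 10 genes, 5.33 ± 1.63 had an upstream peak in H3K4R, 4.67 ± 2.16 in H3R2A and 7.17 ± 1.17 in H3 wild type at 2, 4 and 6 h (SD, n = 6 each), beside 2.81%, 1.71% and 2.82% of all genes, so the H3R2A lists also held fewer upstream peaks over the genome. At these times the MET6 peak was inside 500 bp in 2, 1 and 5 of the 6 libraries of H3K4R, H3R2A and H3 wild type. Counted up to 600 bp, and with 0 h included, it was in 5, 6 and 7 of 8 libraries in the same order. The differences between the strains, and the part of the window edge in them, were not tested. The 2 H3 wild type libraries at 4 h had 8 such peaks each, against 6 and 7 in H3K4R and 7 and 6 in H3R2A (replicates 1 and 2). At 0 h they were found in 1 of the 6 H3 strain libraries, H3 wild type replicate 2, at SUL2, MET3 and MET6.

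The competition libraries held almost nothing at these genes. Spp1-GFP had peaks at MET2 and MET6 in replicate 1 at 4.5 h and at none of the 10 in its other 7 libraries. Spp1-myc of that series had 1 peak, of 101 bp with a score of 0.603, at MET5 in replicate 1 at 5 h, and none in its other 9. At 4.5, 5 and 5.5 h, where both had 2 libraries per time, 0.333 ± 0.816 of the 10 genes were occupied with Spp1-GFP and 0.167 ± 0.408 with Spp1-myc (SD, n = 6 each). Fisher's exact test called 0 of 870 genes (0%, with 29 at an unadjusted p under 0.05 and a lowest adjusted p of 0.171), and the 3 of the 10 genes that could be tested had an adjusted p of 1.0. The lists were short in both, with 4.87% and 1.01% of genes occupied, and the part of this in the low counts was not tested.

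Beyond the 10 genes, 41 other genes of sulfur metabolism were listed by step. At 2, 4 and 6 h in the H3 strains they were occupied in 45.5% of gene and library pairs, against 42.7% at 0 h, while the 10 genes stood at 90.0% against 23.3% and all genes at 15.7% against 24.6%. In the myc strains the other genes had 32.7% at the later times against 34.1% at 0 h, and the 10 genes 38.3% against 15.0%. The 10 genes were chosen by this contrast and the 41 were not, so nothing is read from the gap between them. The transsulfuration genes, which exchange sulfur between homocysteine and cysteine, had 63.9% later against 70.8% at 0 h in the H3 strains and 25.0% against 50.0% in the myc strains. CYS3, cystathionine gamma-lyase, was occupied in 6 of 6 H3 strain and 4 of 4 myc strain libraries at 0 h, and later in 14 of 18 and 0 of 12. The siroheme and phosphatase genes had 35.2% later against 5.56% at 0 h in the H3 strains. Among them MET22, the phosphatase that removes the by-product of sulfate reduction, was occupied in 10 of 18 later H3 strain libraries and 1 of 6 at 0 h. Against H3 wild type, 0 of the 36 of these genes tested in H3K4R and 0 of the 35 tested in H3R2A passed.

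Of the 6 regulators, MET4, the transcriptional activator of the pathway, was occupied at 0 h in 6 of 6 H3 strain libraries and in 4 of 4 myc strain libraries, and at 2, 4 and 6 h in 18 of 18 and 1 of 12. Over all times it had 24 of 24 H3 strain libraries against 3 of 12 of the Spp1-myc forms (p = 0.000797 after adjustment, exact test), those 3 being the 0 h libraries. Its upstream peak was present in 22 of 24 against 0 of 12 (p = 1.49e-05 after adjustment, exact test), and of the 41 genes, 15 of which could be tested, it was the 1 that passed by upstream peaks. MET4 entered that test only through the H3 strains, so 1 direction alone was possible. Of all genes tested, 3.42% were called higher in the H3 strains by upstream peaks and 0.744% by any peak. This contrast was added after the data were seen. In it strain and tag change together, and successive times count as separate libraries. By any peak, SAH1, S-adenosylhomocysteine hydrolase, also passed, in 21 of 24 against 3 of 12 (p = 0.0425 after adjustment, exact test). It was occupied at 0 h in 6 of 6 H3 strain and 4 of 4 myc strain libraries, and later in 15 of 18 and 2 of 12. MET28, a cofactor of Met4, was occupied in 17 of 18 later and 2 of 6 0 h libraries of the H3 strains, and in 11 of 12 later and 0 of 4 0 h libraries of the myc strains. MET30, the ubiquitin ligase subunit that restrains Met4, had 16 of 18 and 2 of 6 in the H3 strains and 8 of 12 and 0 of 4 in the myc strains. CBF1 and MET32, which encode DNA-binding partners of Met4, had a peak in 5 and 3 lists.

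In the remaining steps several genes were occupied at 0 h as well as later. ADE3, the trifunctional folate enzyme, was occupied in 18 of 18 later and 6 of 6 0 h libraries of the H3 strains, and in 12 of 12 and 2 of 4 of the myc strains. MET13, methylenetetrahydrofolate reductase, had 15 of 18 and 5 of 6 in the H3 strains and 10 of 12 and 4 of 4 in the myc strains. SHM2, the cytosolic serine hydroxymethyltransferase, had 14 of 18 and 3 of 6, and 12 of 12 and 1 of 4, in the same order. SAM1 and SAM2, the S-adenosylmethionine synthetases, had 14 and 16 of 18 later H3 strain libraries, 6 and 5 of 6 at 0 h, and 9 and 12 of 12 later myc strain libraries with 4 of 4 each at 0 h. HOM3, aspartate kinase, had 11 of 18 and 2 of 6 in the H3 strains and 12 of 12 and 3 of 4 in the myc strains. CYS4, cystathionine beta-synthase, had 16 of 18 and 6 of 6 in the H3 strains, and 2 of 12 and 4 of 4 in the myc strains, a course like that of CYS3. GSH1, the first enzyme of glutathione synthesis, had 11 of 18 and 3 of 6, and 0 of 12 and 2 of 4.

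Among transport and salvage genes the courses differed. SAM3, the S-adenosylmethionine permease, was occupied in 13 of 18 later and 0 of 6 0 h libraries of the H3 strains and in 9 of 12 and 0 of 4 of the myc strains. ADI1, a methionine salvage enzyme, had 13 of 18 and 2 of 6 in the H3 strains and 9 of 12 and 0 of 4 in the myc strains. MUP3, a low-affinity methionine permease, had 17 of 18 and 5 of 6, and 9 of 12 and 1 of 4, while MUP1, the high-affinity one, had 8 of 18 and 6 of 6, and 1 of 12 and 3 of 4. MMP1, the S-methylmethionine permease, had the widest split between H3 mutants and H3 wild type among the sulfur genes, a gene singled out after its values were seen. It had a peak in 8 of 8 H3K4R, 7 of 8 H3R2A and 0 of 8 H3 wild type libraries, and did not pass over all genes (Fisher's exact test, adjusted p = 0.225 and 0.636).

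Within the group, MET3 and MET5 had the most similar pattern, with a peak together in 18 of the 20 libraries in which either had one (Jaccard index 0.90), followed by MET2 and MET17, together in 29 of 36 (0.806). Of all genes whose windows do not overlap, those with the pattern closest to MET6 over the 62 lists were SPG4 (0.919), GAP1, the general amino acid permease (0.892), and GCV2, a subunit of glycine decarboxylase (0.868). For MET17 they were ARG1, argininosuccinate synthetase (0.872), ERG13, hydroxymethylglutaryl-CoA synthase (0.868), and FAS1, a subunit of fatty acid synthase (0.854). For MET2 they were MET17 itself (0.806), PFK1, a subunit of phosphofructokinase (0.737), and RPL9B, a ribosomal protein (0.711). These indices share the length of the lists and the strains, and are given as a description.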

How the data were processed

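The authors deposited 1 peak list per library for 62 of the 64 samples described in the labels. Each deposited peak has a position, a width in bp and a score, a fraction between 0.5 and 1 given by the caller, with no normalization stated. BWA and deepTools, without versions, and sacCer3 are named in the submitters' processing notes, and for the peak caller, its threshold and its control the sources used here give nothing. Positions were read as 1-based. Of 56230 peaks, 2787 lay on a sequence named chrXVII and were left out.

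Gene positions came from the RefSeq table of R64, the same assembly, with strands from the systematic names. The 10 genes, the lists of other sulfur genes, the tests and the alternatives were chosen with earlier results of these data known. Genes named are the 10, other sulfur genes that passed or, per list, some of those with most peaks, and for the 3 of the 10 with most peaks the 3 genes of highest Jaccard index; CBF1, MET32, MMP1, IES5 and HHT1 were named after their values were seen, and MRP2 and YLR302C as neighbours that share peaks.

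Peak presence was compared per gene by two-sided Fisher's exact test, and covered length by a two-sided exact permutation within time, with Benjamini-Hochberg adjustment over all genes with a peak in the comparison and a threshold of 0.05 (Python 3.11.15 with numpy 2.4.6, scipy 1.17.1 and pandas 2.3.3). The comparison of H3 strains with Spp1-myc forms and the covered length were added after the data were seen. Of these, the first counts successive times of a series as separate libraries and is not independent of the choice of the 10 genes. Both tests were checked on simulated data, with libraries drawn independently and large differences set in. That check does not cover successive times of a series or smaller differences. Deposited lists give no read counts, so precision rests on the number of libraries. The sample descriptions call Spp1 of the H3 strains myc-tagged, while genotype and antibody give HA, which was followed. Sequences and the planned search for promoter motifs are not given, since no genome was used here.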

Additional observations from a re-analysis of the deposited data

How the results depend on the processing

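For H3K4R, H3R2A and the competition, 0 genes were called under every alternative run: windows of 250 and 1000 bp, any overlap with the coding region, peaks above each list's median score, equal list lengths, strata by time, each replicate series left out and, for the H3 strains, 2, 4 and 6 h only. The covered-length test likewise called 0 genes under its alternatives, all added after the data were seen. With a series or a time left out, fewer than 1296 arrangements remain and the smallest possible p rises. Those alternatives had little room to call any gene, so nothing is read from their 0 calls. The mean cover of the 10 genes was above H3 wild type in 60 of 60 such values for H3K4R and in 55 of 60 for H3R2A, where it was below for MET3, MET5 and MET16 without H3R2A replicate 1 (-4.90, -4.35 and -5.57 percentage points) and for MET16 without H3 wild type replicate 2 (-7.17). These values are 10 genes under 6 settings of the same libraries, not separate outcomes. At 2, 4 and 6 h in the main setting the mean was above for 58.6% of the 2741 genes with any cover in H3K4R. For H3R2A it was above for 31.3% of 2216.

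The difference in members occupied per library, H3K4R minus H3 wild type, was 0.25, and became 1.5 with a 250 bp window, 1.88 with any coding overlap, 1.62 with peaks above the median score and 2.12 with equal lists. For H3R2A minus H3 wild type it was 0, and 1.12, 1.62 and 1.12 with a 250 bp window, any overlap and equal lists. With 1 series left out it lay between -0.25 and 0.75 for H3K4R and between -0.5 and 0.5 for H3R2A. The cause of these moves was not tested. Later minus 0 h in the H3 strains was 6.67, and 5.67 with 250 bp and 5.39 with any overlap. The number gained in Spp1-myc was 1, and 2 with any overlap.

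Between the H3 strains and the Spp1-myc forms, the 37 genes called by any peak became 18 (250 bp), 17 (any overlap), 6 (above the median score), 14 (equal lists), 11 (H3 wild type against the Spp1-myc forms) and 0 (H3 wild type against full-length Spp1-myc), and lay between 24 and 41 with 1 series left out. The 53 called by upstream peaks became 2 (250 bp), 80 (1000 bp), 10, 13, 30 and 0 under the same settings, and lay between 19 and 40 with 1 series left out. Of the 10 genes, the 6 called by upstream peaks became 0 (250 bp), 1 (above the median score), 1 (equal lists) and 0 (H3 wild type against full-length Spp1-myc), and 2 to 6 with 1 series left out. H3 wild type against full-length Spp1-myc has the fewest libraries of these settings and little room to call any gene, so nothing is read from its 0 calls. Most upstream midpoints lie more than 250 bp from the coding start, which by construction ends the calls of those genes in that window. MET10 differs: its 13 upstream midpoints lay at 192 to 246 bp, inside that window, and it was not called there either. The reason was not tested.

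Replicate numbers are shared between strains in the labels, with no statement that they mark a shared culture. Deviations of same-numbered libraries correlated between -0.0468 and 0.21, so the numbers were not treated as pairs. With a replicate block, stratified by replicate number, 0 genes were called by presence for H3K4R, H3R2A and the competition, and 0 by covered length for H3K4R and H3R2A. For covered length the block leaves fewer arrangements, so it had little room to call any gene. No block was possible between the H3 strains and the Spp1-myc forms, which had 1 series each.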
